A study of Mus musculus with 6 samples.

Results

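The MAP kinase phosphatases of the DUSP family were examined as 10 genes, Dusp1, Dusp2, Dusp4, Dusp5, Dusp6, Dusp7, Dusp8, Dusp9, Dusp10 and Dusp16, among the 51826 genes in each deposited table. They were taken by name, through their Ensembl numbers, and not by a cut on their values. The list was chosen with earlier results of these data known. All 10 passed the filter on low counts. Messenger RNA was sequenced from mouse embryonic fibroblasts (MEFs), connective-tissue cells cultured directly from embryos and here of C57BL/6 strain background, at passage P2-5. The groups were 3 cultures heterozygous for Lztr1 (Lztr1 +/-, "Het", numbered 11, 15 and 18) and 3 wild-type cultures (Lztr1 +/+, "WT", numbered 10, 12 and 16). The LZTR1 protein brings RAS-family proteins to a CUL3 ubiquitin ligase, so the comparison asks which transcripts differ when 1 copy is altered. How the mutant allele was built is not stated in the labels. The labels also do not tell whether each culture came from its own embryo, so p-values refer to the variation among these 6 cultures, part of which may be technical.

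The DUSP family members studied here switch off MAP kinases by removing phosphate from both the threonine and the tyrosine of the activation loop. ERK, JNK and p38 are the kinases concerned, and each phosphatase prefers some of them. Several of the phosphatase genes are themselves induced by the kinases, which makes them feedback inhibitors and widely used readouts of RAS-ERK activity in fibroblasts. Dusp1, Dusp2, Dusp4 and Dusp5 encode nuclear, inducible enzymes. Dusp6, Dusp7 and Dusp9 encode cytoplasmic enzymes that act mainly on ERK, and Dusp8, Dusp10 and Dusp16 encode enzymes that act mainly on JNK and p38.

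Library totals were 11028854 to 21885101 expected counts in Het and 11025286 to 14030349 in WT cultures, and a count of 3 equalled 0.137 to 0.272 CPM (counts scaled to library size). Lztr1 stood at 45.9, 45.1 and 43.8 CPM in Het cultures 11, 15 and 18, against 93.9, 94.1 and 83.2 CPM in WT cultures 10, 12 and 16, so it matched the genotype label in all 6. Fibroblast markers fitted the labelled cell type, with all 10 reaching 1 TPM (RSEM's level per gene length) and a summed level of 10200 to 11300 TPM in Het and 10600 to 12400 TPM in WT cultures. Of 11 macrophage and blood markers 9 reached 1 TPM, while Cd3e had no count in any library. All 7 epithelial markers reached 1 TPM and summed to 99.1 to 260 TPM in Het and 113 to 186 TPM in WT cultures. All 9 neural and Schwann markers did so too, summing to 231 to 321 TPM in Het and 182 to 255 TPM in WT cultures. Markers of erythroid cells summed to 249, 435 and 505 TPM in Het cultures 11, 15 and 18, against 158, 126 and 437 TPM in WT cultures 10, 12 and 16, and 7 of the 10 reached 1 TPM, Gata1 and Hbb-bh1 not among them. Y-linked transcripts were high in Het cultures 15 and 18 and WT culture 12 and near 0 in the others, so both genotypes held female and male cultures in unequal numbers.

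Promoter sequence was available for 8 of the 10 genes, as the 250 bases before and 50 bases after the transcript start in RefSeq (build GRCm38.p6). The promoters of Dusp1, Dusp5, Dusp8 and Dusp7 are printed because the levels of these genes went different ways across the cultures, as described below, and because the first 3 hold matches to elements known to respond to growth factor or stress signals. Capitals mark the core TGACG of the cAMP response element, the AP-1 site TGANTCA, the ETS site CCGGAAGT and the CArG box bound by serum response factor, searched on both strands. The full cAMP response element TGACGTCA contains this core on each strand.
Dusp1, chr17:26508423-26508722, minus strand: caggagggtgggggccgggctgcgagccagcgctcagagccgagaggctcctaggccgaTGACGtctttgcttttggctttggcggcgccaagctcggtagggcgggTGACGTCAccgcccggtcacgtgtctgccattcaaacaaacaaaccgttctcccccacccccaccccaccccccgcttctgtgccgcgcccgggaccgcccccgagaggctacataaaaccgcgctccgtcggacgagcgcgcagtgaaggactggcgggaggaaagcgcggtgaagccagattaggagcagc
Dusp5, chr19:53528895-53529194, plus strand: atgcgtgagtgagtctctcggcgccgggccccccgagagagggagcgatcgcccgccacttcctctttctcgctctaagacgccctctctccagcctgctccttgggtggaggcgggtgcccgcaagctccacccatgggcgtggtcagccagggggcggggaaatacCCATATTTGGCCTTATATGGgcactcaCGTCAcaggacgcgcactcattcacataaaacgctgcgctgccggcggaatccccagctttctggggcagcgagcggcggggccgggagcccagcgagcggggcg
Dusp8, chr7:142095235-142095534, minus strand: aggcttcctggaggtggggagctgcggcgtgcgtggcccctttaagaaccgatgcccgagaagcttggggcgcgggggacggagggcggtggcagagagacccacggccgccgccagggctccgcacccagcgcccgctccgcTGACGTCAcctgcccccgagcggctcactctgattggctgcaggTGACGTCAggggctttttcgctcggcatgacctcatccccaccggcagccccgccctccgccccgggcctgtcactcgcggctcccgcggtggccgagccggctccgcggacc
Dusp7, chr9:106368382-106368681, plus strand: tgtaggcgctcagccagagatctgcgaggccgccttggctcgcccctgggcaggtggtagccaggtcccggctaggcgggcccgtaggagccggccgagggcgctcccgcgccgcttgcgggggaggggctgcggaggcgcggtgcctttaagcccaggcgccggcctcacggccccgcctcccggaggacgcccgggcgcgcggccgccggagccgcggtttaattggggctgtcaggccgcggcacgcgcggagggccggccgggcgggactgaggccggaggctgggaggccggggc

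Dusp1 held the full cAMP response element at -143 from its start and Dusp8 held it at -107 and at -63. It occurred in 2 of the 8 promoters and in 1.79% of 32851 promoters of the same length. The promoter of Dusp5 held a pair of adjoining CArG boxes at -82 and -72. At least 1 CArG box was in 1 of the 8 promoters and in 1.63% of all. The core TGACG was in 5 of the 8 promoters and in 20.8% of all, while the AP-1 site (7.81% of all) and the ETS site (3.89% of all) were in 0 of the 8. The ETS search took the exact letters CCGGAAGT alone, so other forms of the site were not counted. The 8 promoters held 57.3% to 78.7% G and C, against a median of 52.7% over all promoters. The shares were not matched for this base composition. These are matches of letters in a short window, and no binding was measured here.

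Levels per gene length spanned a wide range. Dusp6, a cytoplasmic ERK phosphatase whose transcript follows ERK activity, averaged 74.5 ± 7.79 TPM in Het and 67.4 ± 22.2 TPM in WT cultures (SD, n = 3 each). Dusp1, the immediate-early nuclear phosphatase, averaged 72.9 ± 12.3 TPM in Het and 52.3 ± 12.7 TPM in WT cultures, and its range overlapped that of Dusp6 in both genotypes. Dusp6 averaged 26.2% of the family's summed TPM in Het and 28.7% in WT cultures, and Dusp1 averaged 25.7% in Het and 22.5% in WT cultures.

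Below them in Het cultures came Dusp5 (35.3 TPM), Dusp4 (28.3), Dusp9 (21.8), Dusp7 (21.7), Dusp16 (10.9), Dusp10 (8.94) and Dusp8 (7.28). In WT cultures the order was Dusp7 (26.4 TPM), Dusp5 (26.0), Dusp4 (18.6), Dusp9 (16.4), Dusp16 (9.56), Dusp10 (7.82) and Dusp8 (5.49), so Dusp7 ranked 6 in Het and 3 in WT cultures. Neighbours whose ranges over the 3 libraries overlapped were Dusp9 with Dusp7 and Dusp10 with Dusp8 in Het, and Dusp7, Dusp5, Dusp4 and Dusp9 in turn in WT. Dusp2, best known from lymphocytes, was lowest at 2.47 ± 0.603 TPM in Het and 1.96 ± 0.227 TPM in WT cultures, on 17 to 50 counts a library.

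Summed over the 10 genes, the family reached 277, 291 and 284 TPM in Het cultures 11, 15 and 18, against 210, 196 and 290 TPM in WT cultures 10, 12 and 16. The Het cultures lay close together, and WT culture 16 lay with them rather than with the other WT cultures. In a bulk sample, fewer cells with a transcript and less transcript per cell cannot be told apart.

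**Figure D1:**
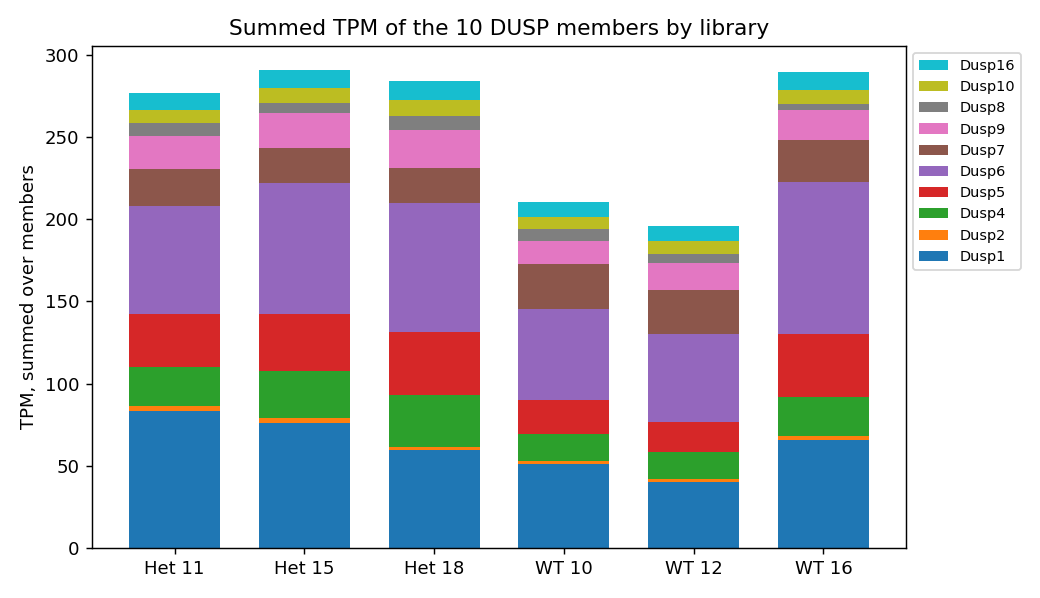
Summed level of the 10 DUSP genes in each library, as TPM on the vertical axis, stacked by gene, with the 3 Het cultures left of the 3 WT cultures. The bars of WT 10 and WT 12 end at 210 and 196 TPM, below the 277 to 291 TPM of the Het cultures and the 290 TPM of WT 16.

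The make-up of that sum was described by class. Nuclear inducible phosphatases made up 51.5%, 49.0% and 46.3% of the family's TPM in Het cultures 11, 15 and 18, against 42.7%, 39.1% and 44.9% in WT cultures 10, 12 and 16. Cytoplasmic ERK phosphatases made up 39.2%, 42.0% and 43.3% in Het cultures, against 46.2%, 49.5% and 47.2% in WT cultures. The groups did not overlap in either share, with WT culture 16 included, and since shares sum to the whole the 2 statements are not independent. Within the cytoplasmic class the shares of Dusp7 did not overlap, while those of Dusp6 and those of Dusp9 did. The summed level of that class overlapped, at 108, 122 and 123 TPM in Het against 97.2, 97.0 and 137 TPM in WT cultures. Its mean was higher in Het (118 TPM) than in WT cultures (110 TPM). The JNK/p38 share was 9.32%, 9.01% and 10.4% in Het against 11.1%, 11.4% and 7.98% in WT cultures, which overlapped.

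Counted in reads instead of TPM, the cytoplasmic share was 39.2%, 41.0% and 40.1% in Het against 45.1%, 47.5% and 44.3% in WT cultures. The highest upper limit in Het was 42.3% and the lowest lower limit in WT 42.8% (95% Clopper-Pearson intervals, which cover counting error only). The nuclear share in reads came to 44.6%, 43.8% and 41.8% in Het against 35.9%, 33.4% and 41.7% in WT cultures. Het 18 (interval 40.3% to 43.3%) and WT 16 (40.2% to 43.1%) could not be separated by that measure. No test was run on these shares, because the members were chosen with earlier results known.

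Between the genotypes, 0 of the 10 genes passed edgeR's quasi-likelihood test at an adjusted p under 0.05, where 0.00683% of the 14652 tested genes did, that being Lztr1 alone. At an unadjusted p under 0.05 there were 4 members, Dusp1, Dusp4 and Dusp9 higher (5.56% of all tested genes) and Dusp7 lower in Het cultures (6.65%), against 12.2% of all tested genes in either direction. DESeq2 gave an adjusted p to 5 members and called 0, beside 0.457% of genes called higher and 0.307% lower, and limma on TPM called 0. The smallest adjusted p by DESeq2 was that of Dusp4, at 0.0625. Dusp9 (unadjusted p = 0.00351 by DESeq2) was given none and so could not be called. In 9 of the 10 genes the Het mean was the higher, against 49.6% of all tested genes, and the median log2 difference over the members was 0.35, against 0.00 over all genes. The groups did not overlap in Dusp9, which was higher in every Het culture (7.75% of all genes), and in Dusp7, which was lower in every Het culture (9.97% of all genes).

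**Figure D2:**
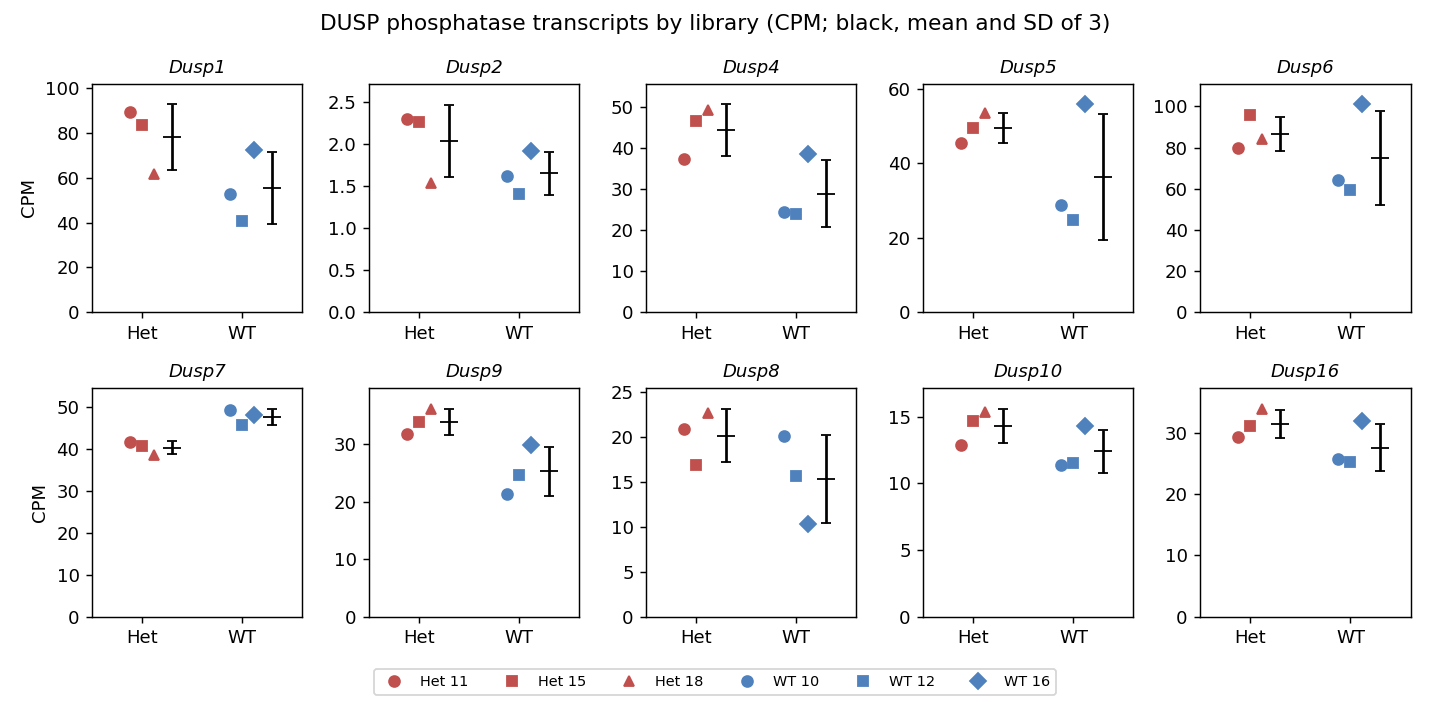
CPM of each of the 10 genes by library, each panel with its own axis from 0, Het cultures left in red and WT cultures right in blue, and black bars for the mean and SD of 3 cultures. Dusp7 lies lower and Dusp9 higher in every Het culture, while WT 16 (diamond) stands above WT 10 and WT 12 in 8 panels.

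Among the nuclear inducible genes all 4 had a higher mean in Het cultures, with a median log2 difference of 0.47. Dusp4, a nuclear phosphatase of ERK and JNK (chromosome 8, 34807297 to 34819894, plus strand, mm10), measured 37.3, 46.6 and 49.3 CPM in Het cultures 11, 15 and 18, against 24.4, 24.0 and 38.5 CPM in WT cultures 10, 12 and 16. Het culture 11 lay just under WT culture 16 and the other Het cultures above it, so the groups overlapped by that pair alone, which stood level in TPM at 23.9 in Het 11 and 23.8 in WT 16. The log2 difference was 0.62 (SE 0.19, 95% interval 0.18 to 1.05), a fold of 1.53, with an adjusted p of 0.321 by edgeR.

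Dusp1 (chromosome 17, 26505590 to 26508519, minus strand), which acts on p38, JNK and ERK, measured 89.1, 83.4 and 61.5 CPM in Het cultures 11, 15 and 18, against 52.9, 40.8 and 72.4 CPM in WT cultures 10, 12 and 16. Het culture 18 lay below WT culture 16 here. Dusp1 differed by 0.50 on the log2 scale (SE 0.21, interval 0.03 to 0.98) with an adjusted p of 0.390.

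Dusp5, an ERK-specific phosphatase that also holds ERK in the nucleus (chromosome 19, 53529109 to 53542431, plus strand), measured 45.5, 49.6 and 53.4 CPM in Het cultures, against 28.7, 24.8 and 55.8 CPM in WT cultures 10, 12 and 16. WT culture 16 was the highest of all 6 libraries, at about the level of Het 18, and the remaining WT cultures were the lowest. Its log2 difference was 0.45 (SE 0.26, interval -0.16 to 1.06, adjusted p = 0.518). Dusp2 differed by 0.32 (SE 0.27, interval -0.30 to 0.94) with overlapping groups, at 2.30, 2.26 and 1.54 CPM in Het against 1.62, 1.41 and 1.92 CPM in WT cultures.

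The 3 cytoplasmic ERK phosphatases had differences of both signs. Dusp6 (chromosome 10, 99263231 to 99267489, plus strand) measured 79.6, 95.8 and 84.2 CPM in Het cultures 11, 15 and 18, against 64.4, 59.3 and 101 CPM in WT cultures 10, 12 and 16. As with Dusp5, WT culture 16 was the highest library and WT cultures 10 and 12 the lowest. The log2 difference was 0.21 (SE 0.19), with an interval of -0.22 to 0.64 and an adjusted p of 0.672.

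Dusp9, an X-linked gene (73639419 to 73643514, plus strand) best known from placenta, measured 31.7, 33.8 and 36.2 CPM in Het cultures 11, 15 and 18, against 21.4, 24.7 and 29.8 CPM in WT cultures 10, 12 and 16. Every Het culture lay above every WT culture. The log2 difference was 0.43 (SE 0.12, interval 0.15 to 0.71, adjusted p = 0.313 by edgeR), and it was 0.41 (SE 0.14) with a term for Y-linked expression, which bears on it because of the gene's place on the X chromosome.

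Dusp7, the remaining cytoplasmic member (chromosome 9, 106368632 to 106375724, plus strand), went the other way. It measured 41.7, 40.7 and 38.6 CPM in Het cultures 11, 15 and 18, against 49.4, 45.7 and 48.2 CPM in WT cultures 10, 12 and 16. The groups did not overlap, and the cultures of each genotype differed little among themselves, with an SD of 1.61 CPM in Het and 1.89 CPM in WT. The log2 difference was -0.24 (SE 0.064, interval -0.39 to -0.09), so Het cultures held 84.6% of the WT level, at an adjusted p of 0.313. Its unadjusted p was the smallest of the 10 members and ranked 239 among all genes tested. In Dusp7 WT culture 16 lay with the other WT cultures, 0.02 above their mean on the log2 scale. Dusp7 made up 8.12%, 7.37% and 7.40% of the family's TPM in Het cultures, against 13.1%, 13.6% and 8.64% in WT cultures 10, 12 and 16.

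The 3 JNK/p38 phosphatases had a median log2 difference of 0.21, each with a higher mean in Het cultures and each with overlapping groups. Dusp8 (chromosome 7, 142079490 to 142095843, minus strand) measured 20.9, 16.9 and 22.6 CPM in Het cultures 11, 15 and 18, against 20.1, 15.6 and 10.3 CPM in WT cultures 10, 12 and 16. Here WT culture 16 was the lowest of the 6 libraries, the reverse of its place in Dusp5 and Dusp6. For Dusp8 the log2 difference was 0.38 (SE 0.22, interval -0.13 to 0.89), and it ran from 0.17 (SE 0.16) without WT culture 16 to 0.64 (SE 0.21, adjusted p = 0.773) without WT culture 10.

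Dusp10 measured 12.9, 14.7 and 15.4 CPM in Het against 11.4, 11.5 and 14.3 CPM in WT cultures. Dusp16 measured 29.4, 31.2 and 34.0 CPM in Het against 25.7, 25.2 and 32.0 CPM in WT cultures. In both, WT cultures 10 and 12 were the lowest and WT culture 16 lay within the Het range. The log2 differences were 0.21 (SE 0.13, interval -0.10 to 0.51) and 0.19 (SE 0.11, interval -0.06 to 0.44). The difference between the 3 classes of phosphatase was not tested.

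WT culture 16 set much of the spread among the WT cultures. It stood above both other WT cultures in 8 of the 10 genes, against 39.9% of all genes, the exceptions being Dusp7 and Dusp8. The gap to the mean of WT 10 and WT 12 was 1.06 on the log2 scale for Dusp5, 0.71 for Dusp6, 0.67 for Dusp4, 0.64 for Dusp1, 0.37 for Dusp9 and -0.76 for Dusp8. WT cultures 10 and 12 lay below every Het culture in 7 of the 10 genes, against 21.1% of all genes.

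**Figure D3:**
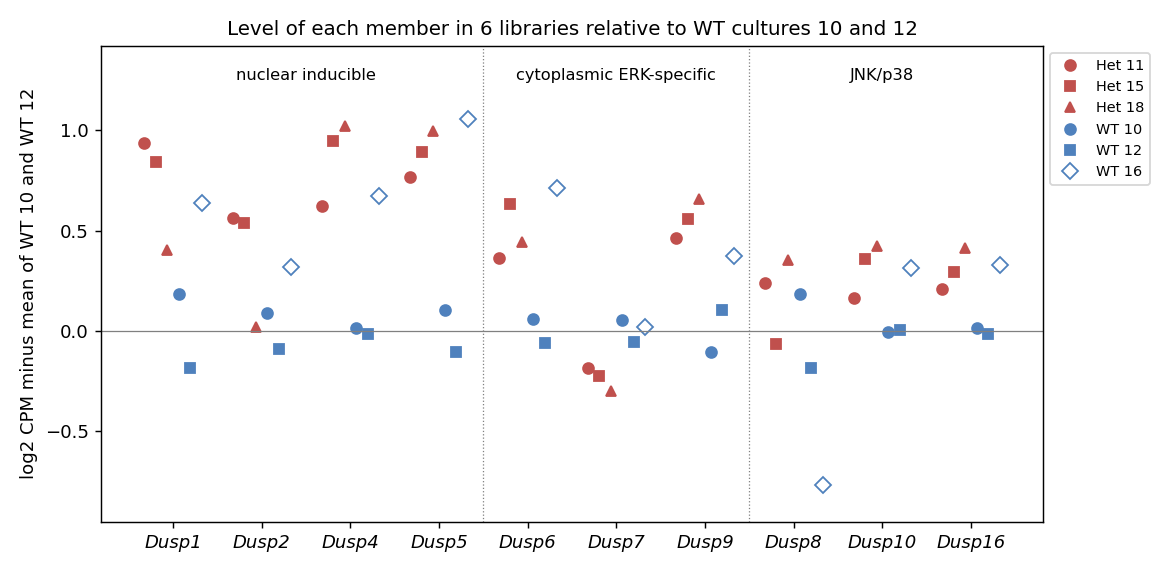
Level of each gene in each library as log2 CPM minus the mean of WT 10 and WT 12, with Het cultures in red, WT cultures in blue and WT 16 as an open diamond. WT 16 lies above WT 10 and WT 12 for Dusp1, Dusp4, Dusp5 and Dusp6, at 1.06 for Dusp5, and below them at -0.76 for Dusp8.

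Without WT culture 16, edgeR called 5 members as higher in Het cultures and 0 as lower, where 3.69% of 15113 tested genes were called higher and 2.24% lower. They were Dusp5 (log2 difference 0.88, SE 0.098, adjusted p = 0.00725), Dusp4 (0.87, SE 0.13, adjusted p = 0.0137), Dusp9 (0.56, SE 0.096, adjusted p = 0.0220), Dusp6 (0.48, SE 0.086, adjusted p = 0.0247) and Dusp1 (0.74, SE 0.17, adjusted p = 0.0480). The called genes thus included 3 of the 4 nuclear inducible genes, 2 of the 3 cytoplasmic ERK genes and 0 of the 3 JNK/p38 genes. The JNK/p38 genes also had higher means in Het cultures. Dusp16 stood at 0.31 (SE 0.086, adjusted p = 0.0823), Dusp10 at 0.32 (SE 0.12, adjusted p = 0.176) and Dusp8 at 0.17 (SE 0.16, adjusted p = 0.566). Dusp7 stood at -0.23 (SE 0.067, adjusted p = 0.0881). Leaving out WT 10, WT 12 or any Het culture instead gave 0 called members by edgeR, and 0 called genes in all, so these counts say nothing particular about the family.

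The WT cultures left, 10 and 12, belong to 1 run of culture numbers (10 to 12), while 2 of the 3 Het cultures belong to the other (15 to 18), so genotype and run are partly confounded in that fit. The labels name no batch. With the run as a term as well, an alternative chosen after seeing the data, the difference rests on 1 Het culture, 11, against WT cultures 10 and 12, since the other run then holds Het cultures alone. That lone culture is assumed to vary like the rest. In it edgeR called Dusp4 (0.63, SE 0.087) and Dusp5 (0.76, SE 0.10), each at an adjusted p of 0.0241, where 1.27% of genes were called higher and 0.655% lower. With all 6 libraries and the run as a term, 0 members passed and 1 gene in all, and Dusp4 stood at 0.47 (SE 0.085, adjusted p = 0.209).

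Within the runs, Het minus WT on the log2 scale was 0.62 in cultures 10 to 12 and 0.31 in cultures 15 to 18 for Dusp4, and 0.46 and 0.23 for Dusp9. For Dusp7 it was -0.19 and -0.28. The nuclear genes Dusp1 (0.94 and -0.02), Dusp2 (0.56 and -0.04) and Dusp5 (0.77 and -0.11) and the cytoplasmic gene Dusp6 (0.37 and -0.18) did not keep their direction in the later run, whose 1 WT culture is culture 16. Dusp8 (0.24 and 0.91), Dusp10 (0.16 and 0.08) and Dusp16 (0.21 and 0.02) kept theirs. The signs for Dusp7 and Dusp9 follow from groups that do not overlap.

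Het culture 11 and WT culture 16 were also registered later than the other 4 cultures, a grouping seen in the sample numbers and not named as a batch. Het minus WT on the log2 scale among the first 4 cultures was 0.98 for Dusp4, 0.94 for Dusp5, 0.62 for Dusp1, 0.61 for Dusp9, 0.54 for Dusp6 and -0.26 for Dusp7. In the later pair, with 1 culture per genotype, it was -0.05 for Dusp4, -0.29 for Dusp5, 0.30 for Dusp1, 0.09 for Dusp9, -0.35 for Dusp6 and -0.21 for Dusp7. Dusp4, Dusp5 and Dusp6 thus had opposite signs in the 2 sets, and so did Dusp10 (0.39 and -0.15) and Dusp16 (0.35 and -0.12), while Dusp2 (0.28 and 0.24) and Dusp8 (0.15 and 1.01) did not. With this block as a term, also chosen after seeing the data, edgeR called 0 members and 1 gene in all.

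**Figure D4:**
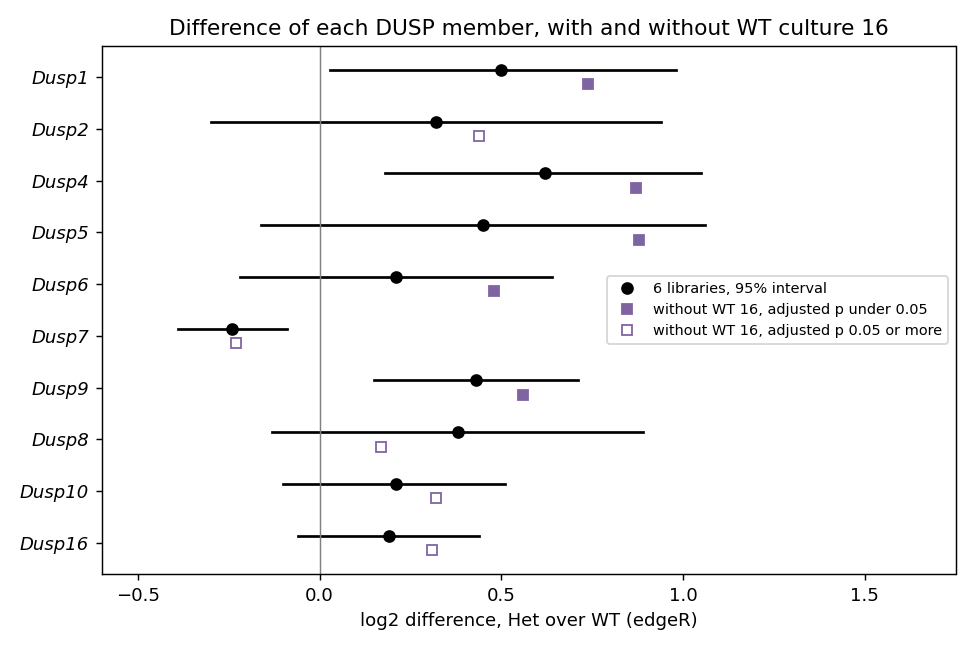
Log2 difference of each gene, Het over WT, from edgeR. Black points with 95% intervals use 6 libraries and squares leave out WT 16, filled where the adjusted p is under 0.05, as for Dusp1, Dusp4, Dusp5, Dusp6 and Dusp9.

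Erythroid markers summed to 158, 249 and 126 TPM in WT 10, Het 11 and WT 12. In Het 15, WT 16 and Het 18 they summed to 435, 437 and 505 TPM. WT 16 thus lay with the other cultures of its run, and Het 11 did not lie with the other Het cultures. The part of these markers in the DUSP levels was not tested. Summed skeletal muscle markers, of which 6 of 7 reached 1 TPM and Ckm did not, were 579, 411 and 547 TPM in Het cultures 11, 15 and 18, against 650, 616 and 421 TPM in WT cultures 10, 12 and 16. Macrophage and blood markers, 9 of 11 at 1 TPM or more, were 219, 392 and 365 TPM in Het, against 254, 259 and 357 TPM in WT cultures. Like the erythroid sums, the muscle, macrophage and blood, and epithelial sums did not overlap between cultures 10 to 12 and cultures 15 to 18. The fibroblast, endothelial, and neural and Schwann sums overlapped between these runs. The part of these marker levels was not tested either.

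Immediate-early genes, which serum and stress induce along with Dusp1 and Dusp5, had 19 of 19 listed genes tested and 0 called in either direction, with 12 higher, 7 lower and a median log2 difference of 0.10. Relative to the WT mean their average log2 level was 0.23, 0.17 and -0.23 in Het cultures 11, 15 and 18, against -0.01, -0.21 and 0.22 in WT cultures 10, 12 and 16. Het 18 and WT 12, the lowest of their genotypes in that average, were also the lowest of their genotypes in Dusp1 and Dusp2. Het 18 was instead the highest Het culture in Dusp4 (49.3 CPM) and Dusp5 (53.4 CPM). WT 12 was the lowest WT culture in both. The cells were trypsinised before RNA was harvested, per the labels, and the part of that step was not tested. Atf3, a stress-induced transcription factor gene, differed by 0.31 (SE 0.13), the AP-1 subunit gene Fosl1 by 0.68 (SE 0.32) and the growth-arrest gene Btg2 by 0.25 (SE 0.13), with adjusted p from 0.400 to 0.468.

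Other ERK output and feedback genes had 0 of 12 called, with 10 higher, 2 lower and a median of 0.10. Their average level was 0.14, 0.18 and 0.13 in Het cultures 11, 15 and 18, against -0.09, -0.17 and 0.26 in WT cultures 10, 12 and 16. WT 16 was thus the highest library in that average, as in Dusp5 and Dusp6. The receptor gene Epha2 differed by 0.59 (SE 0.25), the cyclin gene Ccnd1 by 0.23 (SE 0.10) and the ETS factor gene Etv1 by -0.20 (SE 0.12). The 4 nuclear phosphatases averaged 0.50, 0.58 and 0.39 in Het cultures, against -0.13, -0.32 and 0.45 in WT cultures 10, 12 and 16.

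Of 12 tested genes for MAP kinases, the enzymes that the phosphatases act on, 0 were called, with 7 higher, 5 lower and a median of 0.13. The p38 gene Mapk14 averaged 92.4 CPM in Het and 80.5 CPM in WT cultures (log2 difference 0.20, SE 0.059, adjusted p = 0.315), without overlap. The ERK5 gene Mapk7 differed by -0.19 (SE 0.070) and the atypical kinase gene Mapk6 by 0.14 (SE 0.060), both also without overlap. Over all tested genes 7.75% lay higher and 9.97% lower in every Het culture. Of the 7 MAP kinase kinase genes 0 were called, with a median of -0.05. Map2k5, the kinase upstream of ERK5, stood at -0.18 (SE 0.091) and was lower in every Het culture. Map2k2, which phosphorylates ERK, and Map2k4, which phosphorylates JNK and p38, stood at -0.14 (SE 0.074) and 0.10 (SE 0.073).

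Phosphatases outside the family were listed as well. Of 13 tested atypical dual-specificity genes 0 were called, with 7 higher, 6 lower and a median of 0.02. Dusp18 (-0.27, SE 0.16), Dusp11 (0.08, SE 0.051), an RNA phosphatase, and the pseudophosphatase gene Styx (0.28, SE 0.18) had the smallest p. Dusp11 and Styx were higher in every Het culture (7.75% of all tested genes). Of 7 tested genes for tyrosine or serine/threonine phosphatases of MAP kinases 0 were called, all 7 had a higher mean and the median was 0.04. Ppp2cb, a catalytic subunit of PP2A, differed by 0.08 (SE 0.060), and the tyrosine phosphatase genes Ptpn7 and Ptpn5 by 0.26 (SE 0.27) and 0.32 (SE 0.35). Among 13 regulators of DUSP RNA or protein 0 were called. The F-box gene Fbxo31 stood at -0.25 (SE 0.081) and the RNA-decay factor gene Zfp36l1 at -0.16 (SE 0.062). Both were lower in every Het culture (9.97% of all tested genes). The transcription factor gene Ets1 stood at 0.30 (SE 0.14).

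Likeness of pattern was measured as the root mean square difference between mean-centred log2 CPM profiles over the 6 libraries, among 13684 genes of at least 1 TPM. The profiles were not scaled, so the size of the swings counted as well as their order. The genes nearest to Dusp7, the member with the smallest unadjusted p, were Gcc1 (0.024), Rnf26 (0.026), Phf14 (0.028), Armc5 (0.029) and Sf3b5 (0.029). For Dusp6, the member with the highest level, they were Ahnak (0.036), Spry4 (0.046), Nol10 (0.049), the pseudogene Hspd1-ps3 (0.053), whose reads may be shared with its parent gene, and Aven (0.061). Within the family the profile nearest to Dusp6 was that of Dusp10 (0.158), next that of Dusp16 (0.160), and the farthest that of Dusp8 (0.544).

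RSEM's estimated mean transcript length differed between libraries by 13.9% for Dusp6 (1910 to 2174 bases), by 9.78% for Dusp2 and by 8.03% for Dusp8, and by 0% for Dusp4, Dusp5, Dusp9 and Dusp10. Dusp6 was shortest in WT culture 16, where a shorter length raises its TPM relative to its read count. With the effective length as an offset, the log2 difference of Dusp6 was 0.15 (SE 0.22).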

How the data were processed

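RNA-seq libraries (Illumina TruSeq kit, per the labels' protocols) were deposited as 1 table per culture. Per the file headers each table holds RSEM gene-level values, and the submitters' processing notes name RSEM 1.3.1, DESeq2 and the build mm10. No label or header gives the aligner, annotation release or strand setting. The deposited expected counts are the authors' estimates of reads per gene, and 7.53% to 8.8% of values were not whole, though all counts of the 10 members were. The deposited TPM values are scaled by the authors for gene length and library. The deposited FPKM values were not used.

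Symbols and coordinates came from GENCODE M21 of the same assembly (51633 of 51826 genes matched by Ensembl number). Spans cover the transcripts listed in the tables. Antisense or opposite-strand genes overlap Dusp5, Dusp8, Dusp10 and Dusp16, and strand was not resolved.

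Expected counts were rounded, filtered with filterByExpr (14652 genes left), scaled with TMM factors and tested with edgeR 4.0.16 in R 4.3.3 (quasi-likelihood F test, no covariates, Benjamini-Hochberg over all tested genes, threshold 0.05). CPM values use TMM factors, log2 CPM a prior count of 2, and intervals are at 95%. Alternatives used limma 3.58.1 on log2(TPM + 0.1) and log2(TPM + 1) and DESeq2 1.42.0. The steps were tested on simulated counts of 14652 genes with planted changes. There edgeR recovered 53.7% of 1.5-fold, 74.6% of 2-fold and 100% of 4-fold changes, with 18 false calls. DESeq2 recovered 58.2%, 80.6% and 100%, with 34 false calls. The precision is set by depth and by 3 cultures per genotype: the median SE over genes was 0.11 on the log2 scale, at a biological coefficient of variation of 11.3%. Named genes are the members, Lztr1, and the 3 smallest p per pathway list. Members and lists were chosen with earlier results of these data known. The replicate numbers are not shared between genotypes.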

Additional observations from a re-analysis of the deposited data

How the results depend on the processing

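The direction of all 10 log2 differences was the same under the 17 alternatives run, which covered scaling, filter, test, unit, covariates and libraries. The count of called members was 0 except without WT culture 16 (5 called, log2 differences of 0.74 for Dusp1, 0.87 for Dusp4, 0.88 for Dusp5, 0.48 for Dusp6 and 0.56 for Dusp9) and when the run of culture numbers was added to that fit (2 called, 0.63 for Dusp4 and 0.76 for Dusp5, with Het culture 11 as the only Het culture that informs the difference). Over the fits that left out 1 culture the count ran from 0 to 5, and the log2 difference from 0.33 to 0.74 for Dusp1, 0.51 to 0.87 for Dusp4, 0.25 to 0.88 for Dusp5, 0.07 to 0.48 for Dusp6, 0.17 to 0.64 for Dusp8 and 0.32 to 0.56 for Dusp9. DESeq2 gave no adjusted p for Dusp2, Dusp8, Dusp9, Dusp10 and Dusp16.

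Over all genes edgeR called 1, while 112 were called by DESeq2, 32 without a filter on low counts, 291 without WT culture 16 with the run as a term, and 0 with the effective length offset or limma on TPM at either pseudocount. Leaving out 1 culture gave 0 to 896 genes. Lztr1 kept its direction in every fit. It lost its call at -0.91 with the effective length offset and at -0.94 and -0.92 by limma with pseudocounts of 0.1 and 1. When 1 culture was left out it stood at -1.06 to -0.97 and lost its call in each such fit but that without WT culture 16, where it was -1.06. Its adjusted p by edgeR in those fits without a call was 0.0616 to 0.0759. The cause was not tested. No paired analysis was possible because the groups compared share no replicate numbers. With 3 cultures per genotype, the differences of Dusp2, Dusp5, Dusp6, Dusp8, Dusp10 and Dusp16 did not exceed 2 SE, and Dusp2 rests on at most 50 counts a library.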
